A study of Mus musculus with 4 samples.

Results

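The homeobox, Sox and forkhead transcription factors described here were 127 array features of 118 genes, out of 16281 features measured in the mouse dentate gyrus. A feature was taken when its single gene symbol on the platform was that of a Hoxa to Hoxd, Lhx, Pax, Sox, Dlx, Nkx, Pou, Fox, Meis, Pbx, Otx, Emx or sine oculis homeobox gene, and when it had a value on at least 1 array. Of 147 features of 133 genes with such symbols, 20 had no value on any array, which left 15 genes without a member. The symbols also took in 4 opposite-strand transcripts (Dlx6os2, Hoxa11os, Hoxd3os1 and Sox6os) and 1 cofactor, Pou2af1, which binds POU proteins but is not itself a transcription factor of these families. All 127 members matched the gene table by Entrez identifier.

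The study set RNA from the dentate gyrus of young male C57BL/6J mice injected with MK-801, at 300 µg per g body weight as labelled, against RNA from saline-injected mice of the same kind, at 5 µL per g. MK-801 (dizocilpine) blocks the channel of the NMDA-type glutamate receptor. MK-801 RNA carried Cy5 and saline RNA carried Cy3 on each of 4 two-colour arrays, 1 at each of 1, 2, 4 and 6 h. The hours ran from the last shock of the MK-801 mice, yet the labels call the RNA of both channels that of control mice, so shocks in the arrayed mice are unsettled. No label gives the number of mice behind an array, and no dye swap or repeat was made.

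Homeodomain proteins bind DNA through a helix-turn-helix fold, Sox proteins bend DNA through a high mobility group box, and forkhead proteins bind through a winged helix. In the embryo these families assign position and cell type: Hox genes pattern the hindbrain, spinal cord and trunk behind the forebrain, LIM, Pax, Nkx and Dlx genes divide the forebrain, and Sox genes keep stem cells or start glial, neuronal and vessel programmes. In the adult dentate gyrus, Sox2 marks neural stem cells, Sox11 and Sox4 are expressed as new granule neurons form, Sox10 and Nkx2-2 belong to oligodendrocyte lineage cells, and Sox17, Sox18 and Foxc1 belong to cells of the vessel wall. Meis and Pbx proteins bind DNA beside Hox proteins as partners, and FOXO factors leave the nucleus when insulin signalling is active.

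All values are the deposited log ratios of the 2 channels, read as log2 and centred on the median of each array. The base of the logarithm and the direction of the ratio are not given in the sources used here, so either channel may hold the more RNA where a value is positive, and values are described by their sign alone. An exact 0 stood for no value. The authors' array medians already lay between 0.0052 and 0.017. The spread over all features, as the median absolute deviation scaled to an SD, was 0.321, 0.232, 0.227 and 0.209 at 1, 2, 4 and 6 h, the 1 h array being the widest. Each time rested on 1 array with no repeat, and the spread between times served as the error of every test. A ratio gives no level, so whether granule cell genes were well expressed could not be read. Values existed for 9 of 12 listed granule cell markers, and none of the 10 features tested passed a test. Fewer cells of a type and less RNA per cell cannot be told apart in RNA of the whole dentate gyrus.

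Many members could be measured on only some arrays. Values existed on all 4 arrays for 53 members of 48 genes, on 3 arrays for 20, on 2 arrays for 29 and on 1 array for 25. The members were measured less completely than the table as a whole: 41.7% of members had 4 values, against 62.6% of the 14030 features with any value. The families differed. All 4 Meis features and all 3 Pbx features had 4 values, as did 11 of 18 Sox features, 6 of 12 Pou, 4 of 9 Lhx and 12 of 33 Fox features. At the other end were 2 of 7 Dlx, 2 of 9 Pax, 3 of 14 Nkx, 6 of 34 Hox features, and 0 of 4 features of Six3, Six4, Six5 and their relatives. Over all features the share was 53.9%. Hox features had values in 15, 22, 9 and 12 cases at 1, 2, 4 and 6 h. Of all members, 16 had a value at 2 h alone and 8 at 1 h alone.

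**Figure D1:**
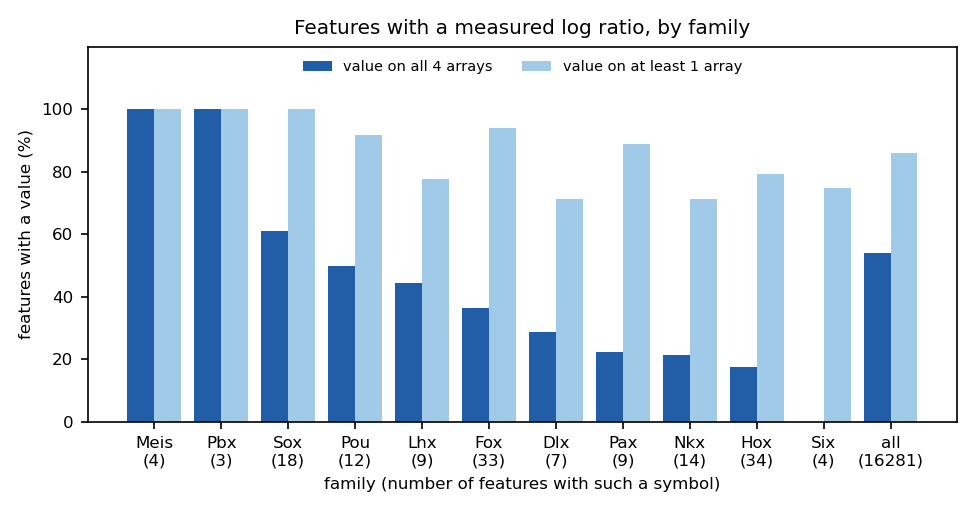
Percent of the features of each family (y axis) with a value on all 4 arrays (dark bars) or on at least 1 array (light bars), with the number of features under each family name (x axis) and all 16281 features at the right. Meis and Pbx bars reach 100%, and the dark bars of Hox, Nkx, Pax and Dlx lie between 17.6% and 28.6%, below the 53.9% of all features.

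Upstream sequences of 4 members that passed a test below are shown, 1 from each of the Hox, Nkx, Dlx and Fox families. Hoxa7 and Nkx2-2 had positive ratios at 1 h, and Dlx2 and Foxc1 had negative ones. These 4 sequences were picked after the values of their genes were seen. Each is the 250 bases before the RefSeq start in GRCm38.p6, written 5′ to 3′ on the strand of the gene, and capitals mark matches to any of 7 motifs on either strand: TAATTA (homeodomain core), ACAAT (Sox core), TGTTTA (forkhead core), TGACGT (CRE core), GGGCGG (GC box), CCAAT and TATAAA. None of the marked matches overlap. Hoxa7 lies at chr6:52218574-52218823 (minus strand), Nkx2-2 at chr2:147186403-147186652 (minus strand), Dlx2 at chr2:71546755-71547004 (minus strand) and Foxc1 at chr13:31806396-31806645 (plus strand).
Hoxa7: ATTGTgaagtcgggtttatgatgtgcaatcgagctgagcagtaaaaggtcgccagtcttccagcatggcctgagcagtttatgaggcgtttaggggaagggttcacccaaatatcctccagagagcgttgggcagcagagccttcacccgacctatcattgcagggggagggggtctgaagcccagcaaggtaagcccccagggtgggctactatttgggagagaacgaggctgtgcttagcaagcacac
Nkx2-2: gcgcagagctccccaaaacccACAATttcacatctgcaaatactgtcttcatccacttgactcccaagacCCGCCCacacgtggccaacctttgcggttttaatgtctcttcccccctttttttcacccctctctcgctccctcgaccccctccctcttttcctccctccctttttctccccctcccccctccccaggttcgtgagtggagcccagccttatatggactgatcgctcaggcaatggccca
Dlx2: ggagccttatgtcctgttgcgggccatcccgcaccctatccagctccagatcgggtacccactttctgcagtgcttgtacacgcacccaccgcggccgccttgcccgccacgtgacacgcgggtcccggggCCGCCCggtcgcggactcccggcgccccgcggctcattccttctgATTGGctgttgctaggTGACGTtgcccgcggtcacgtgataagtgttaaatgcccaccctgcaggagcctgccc
Foxc1: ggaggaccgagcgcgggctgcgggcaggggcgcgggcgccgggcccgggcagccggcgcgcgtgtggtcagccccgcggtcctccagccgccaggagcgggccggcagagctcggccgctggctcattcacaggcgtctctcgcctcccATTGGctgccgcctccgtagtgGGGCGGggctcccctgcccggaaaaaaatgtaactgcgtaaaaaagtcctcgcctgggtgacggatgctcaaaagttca

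The Hoxa7 window held 1 Sox core and no GC box, at 54.8% GC. The Nkx2-2 window, at 56.4% GC, held a Sox core and a GC box. The Dlx2 window, at 66.4% GC, held a GC box, a CCAAT box and a CRE core, the motif bound by the activity-regulated factor CREB. The Foxc1 window, at 70.8% GC, held a CCAAT box and a GC box. The set of promoters used here held 103 promoters for 85 of the 118 member genes. A GC box occurred in 52.4% of them, against 32.7% of all 32851 promoters, and a CCAAT box in 46.6%, against 33.8%. The CRE core occurred in 12.6%, against 6.47% of all promoters. The cores these families bind were less frequent: ACAAT in 18.4% against 27.7%, TGTTTA in 5.83% against 12.0%, and TAATTA in 2.91% against 4.84%. TATAAA stood in 9.71% against 12.4%. These are letter matches in a fixed window and were set against no test.

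The medians of the members lay between -0.12 and 0.10 at the 4 times. Some genes stood out, Lhx1 and Sox3 on every array that measured them and Hoxa7, Pax8 and Pax2 at 1 h. At 1 h the 100 measured members had a median of 0.10 with an interquartile range of 0.51, and 58 were positive. At 2 h the median of 117 members was -0.01, with 54 positive. At 4 h the median of 61 members was -0.12, and 19 were positive (31.1%). On that array the lower quartile of all features was -0.15, and 50.0% of them were positive. At 6 h the median of 77 members was -0.04, with 33 positive. By construction the median of all features was 0 on each array. The 53 members with 4 values had 25 positive values at 1 h (47.2%), and their 1 h median was -0.05, opposite in sign to that of all measured members. They had 16 positive values at 4 h (30.2%), and their 4 h median was -0.12.

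Large ratios were most common at 1 h, on the widest array. At 1 h, 12 of 100 members lay at or above 0.5, against 9.03% of all features, and 10 at or below -0.5, against 6.37%. At 2 h the counts were 2 and 6 of 117, against 2.48% and 3.88% of all features. At 4 h they were 0 and 6 of 61, against 3.85% and 5.21%, and at 6 h 3 and 3 of 77, against 2.68% and 4.09%. Counted in both directions, members past 0.5 numbered 22, 8, 6 and 6 at 1, 2, 4 and 6 h, against 15.4%, 6.36%, 9.06% and 6.77% of all features. Members past 1 numbered 4, 2, 2 and 2, against 2.13%, 0.957%, 2.11% and 1.55%. At or above 1 were 3 members at 1 h (background 1.71%) and none at 2, 4 or 6 h (background 0.0%, 0.108% and 0.114%). At or below -1 were 1 member at 1 h (background 0.412%) and 2 at each of 2, 4 and 6 h (background 0.957%, 2.0% and 1.44%), and these were Lhx1 and Sox3. Of the 12 members at or above 0.5 at 1 h, only 3 had a value on all arrays, while 8 of the 10 at or below -0.5 did.

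**Figure D2:**
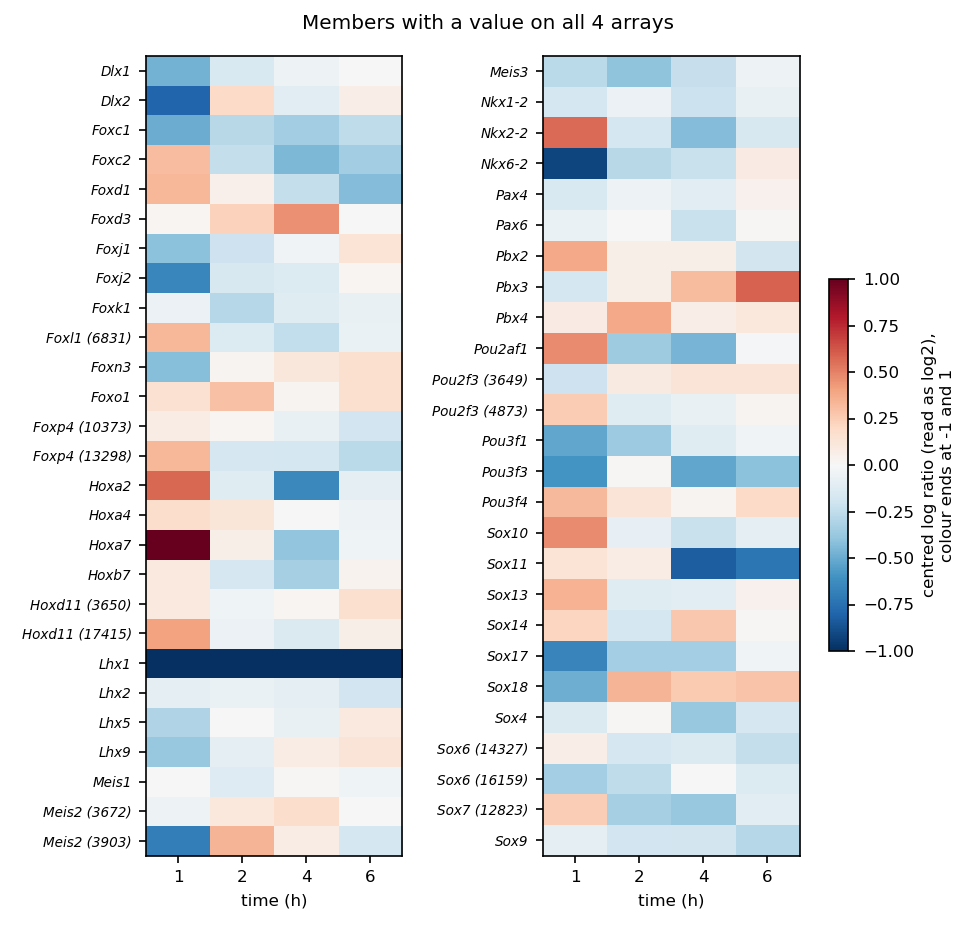
Centred log ratio of the 53 members with a value on all 4 arrays (rows) at 1, 2, 4 and 6 h (columns), with the colour scale ending at -1 and 1. Lhx1 was below -1 throughout, and most strong colours of other genes sat in the 1 h column.

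Of the 53 members with 4 values, 10 were negative on all arrays and 3 were positive on all arrays. Among all 8777 features with 4 values, 14.2% were negative and 11.4% positive throughout. The negative group held Foxc1 and Foxk1, the LIM genes Lhx1 and Lhx2, Meis3, Nkx1-2, Pou3f1, Sox17, Sox9 and Sox6 (feature 16159). The positive group was Foxo1, Pbx4 and Pou3f4. No member's mean over the 4 times passed limma's test against 0 (0 of 53, background 0.0% of 8777). At an unadjusted p below 0.05 stood 7 of the 53 members, all negative, and 1295 of the 8777 features, 606 positive and 689 negative. The median of the members' means was -0.07, against -0.0094 for all features tested.

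Because the 1 h array stood apart, the mean of 2, 4 and 6 h was tested on its own. The Benjamini-Hochberg adjusted limma p was below 0.05 for 5 of 59 members, 1 positive and 4 negative. That is 8.47% of the members, a share near the background of 10.9% of 9353 features (5.7% positive and 5.24% negative). At an unadjusted p below 0.05 were 16 negative and 2 positive members, against 1529 negative and 1660 positive features. The median over the members was -0.09, and over all features -0.0018. The 5 called members were the LIM gene Lhx1, the stem cell gene Sox3, and Foxc1, Foxc2 and Sox18, genes of the vessel wall.

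Lhx1 encodes a LIM homeodomain protein of head organisers, Cajal-Retzius cells and Purkinje cells. Its ratio was -1.22 at 1 h and then -3.35, -3.66 and -2.98. Sox3, a SoxB1 factor of neural progenitors, had no value at 1 h and then -2.81, -3.23 and -2.84. The means of the 3 later times were -3.33 ± 0.13 for Lhx1 (SE, limma adjusted p = 0.000184) and -2.96 ± 0.10 for Sox3 (adjusted p = 0.000117). Both were far below every other member, of which none went under -1 at any later time.

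Features with numbers next to those of these members were low as well. Of the 10 features within 5 numbers of Lhx1 (number 15764), 7 reached -2 or lower on each of the 3 later arrays, and the neighbour medians were -3.14, -3.47 and -2.79. At 1 h the neighbour median was -0.58. Directly beside Lhx1, the Notch target gene Hes1 had -3.36, -3.74 and -3.16 on the later arrays. The potassium channel gene Kcnj12 had -1.29, -3.48, -3.78 and -2.89 at the 4 times. Of the 10 features around Sox3 (number 17651), -2 or lower was reached by 3 on the 2 h array and by 4 on each of the last arrays, while their medians were -0.14, -0.48 and -0.48. No other member had a neighbour at or below -2 at a later time. In the table, 18 runs of such numbered neighbours held 85 of the 200 features with a later value at or below -1.5, and the runs took in 164 features, 2 of them members. Lhx1 lay in a run from 15761 to 15777 with 13 low features of 17, and Sox3 in a run from 17645 to 17652 with 6 of 8. Only feature numbers were used, because positions on the slide are not given in the sources used here. How far the low ratios of both genes belong to their place on the array was not tested. Without the 164 features the count was 3 of 57 members, namely Foxc1, Foxc2 and Sox18, against 974 of 9270 features.

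**Figure D3:**
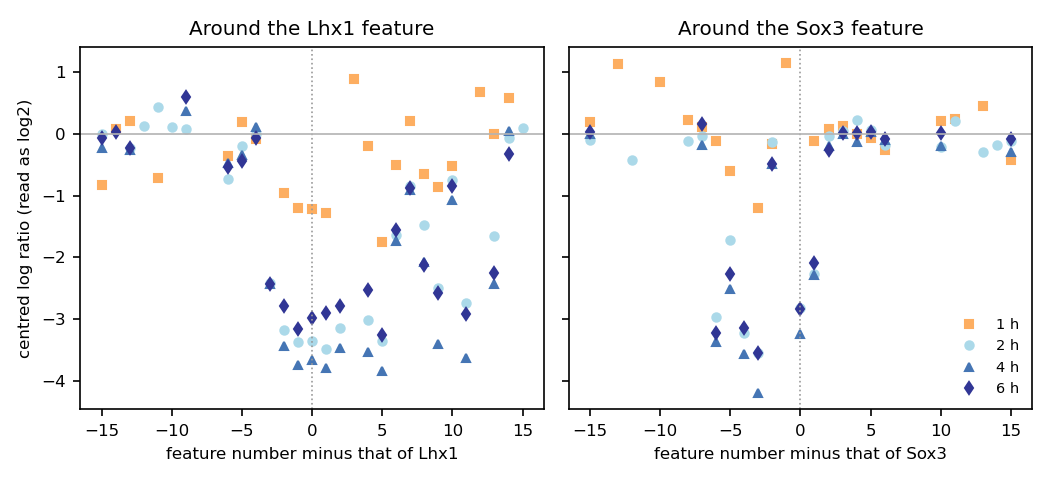
Centred log ratio (y axis) of the features up to 15 numbers on either side of Lhx1 (left) and Sox3 (right), by feature number relative to the member at the dotted line (x axis), with 1 symbol for each time. Around both members, several features were as low as the member at 2, 4 and 6 h. On the right, low values go on to number 15777 beyond Lhx1 and to number 17652 beyond Sox3.

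The remaining calls were vessel genes, and they did not share a direction. Foxc1, which is needed for pericytes and the meninges, had ratios of -0.50, -0.27, -0.35 and -0.25 at 1, 2, 4 and 6 h. Foxc2, its close relative in lymphatic and arterial endothelium, had 0.31, -0.24, -0.45 and -0.35. Sox18, an endothelial Sox factor, had -0.49 at 1 h and then 0.34, 0.26 and 0.28. Foxc1 was thus negative throughout, while Foxc2 and Sox18 had opposite signs at every time.

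The later means were -0.35 ± 0.07 for Foxc2 (SE, limma adjusted p = 0.0360), -0.29 ± 0.06 for Foxc1 (adjusted p = 0.0394) and 0.29 ± 0.06 for Sox18 (adjusted p = 0.0378). All 3 calls were lost without the 4 h array or without the 6 h array, with adjusted p between 0.134 and 0.185. Without the 2 h array the adjusted p was 0.0623 for Sox18 and 0.0584 for Foxc1, while Foxc2 kept its call at 0.0382. All 5 calls on the later mean, Lhx1 and Sox3 included, were lost when exact 0 was read as a value and 16281 features were tested, with adjusted p between 0.0739 and 0.111. Sox7, another SoxF factor, had a later mean of -0.28 ± 0.07 (adjusted p = 0.0647) from -0.33, -0.38 and -0.11. Sox17, the arterial SoxF factor, was -0.66, -0.34, -0.34 and -0.04, with a later mean of -0.24 ± 0.08 (adjusted p = 0.104). The later means of the 3 SoxF genes thus differed in sign. Foxf2, a pericyte gene, had a value at 2 h alone, 0.56, and Foxq1, an endothelial gene, had 0.13 at 1 h and 0.13 at 2 h.

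General vessel markers moved in both directions beside them. All 9 listed genes had values, and their feature medians were 0.0011, 0.08, 0.12 and 0.17 at 1, 2, 4 and 6 h, within ranges of -1.05 to 0.28, -0.28 to 0.44, -0.40 to 0.76 and -0.38 to 0.36. Of 7 features tested on the later mean, the endothelial adhesion gene Esam was called at 0.25 and the VEGF receptor gene Flt1 at -0.34. The part of vessel content in the ratios of the Fox and Sox genes was not tested.

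Genes of neural stem cells and new neurons were mostly negative at all 4 times, and apart from Sox3 none of those tested passed. Sox11, a SoxC factor switched on in newly committed neurons, had 0.13 and 0.08 on the first arrays, and -0.82 and -0.72 at 4 and 6 h. Its later mean was -0.49 ± 0.18 (SE, limma adjusted p = 0.119). At both late times Sox11 was the lowest member after Lhx1 and Sox3, while its first values were near 0. Of the 10 features numbered around Sox11, 9 had a value at 4 h, with a median of -0.36 and a lowest value of -0.83. At 6 h the median of these neighbours was 0.08. Sox2, the stem cell factor, had -0.01, -0.53 and -0.33 at 2, 4 and 6 h (mean -0.29 ± 0.10, adjusted p = 0.115). The features numbered around Sox2 had medians of -0.43 at 4 h and -0.12 at 6 h. How far the ratios of Sox11 and Sox2 go with those of their numbered neighbours was not tested. Sox4, the other SoxC factor measured, had -0.14, 0.01, -0.38 and -0.17, and Sox9, a factor of stem cells and astrocytes, had -0.10, -0.19, -0.18 and -0.28. The later mean of Sox9 was -0.22 ± 0.06 with an adjusted p of 0.0655. Pax6, which drives neuron production from progenitors, had -0.06, -0.01, -0.23 and 0.01. Over the listed genes, 2 of 7 features were positive at 1 h, 3 of 11 at 2 h, 0 of 8 at 4 h and 2 of 9 at 6 h, and the sole call was Sox3. Astrocyte markers, which share cells with Sox9, were called positive in 3 of 11 features on the later mean (Gfap 0.38, Aldoc 0.38 and Slc1a3 0.36). Of all features, 10.9% were called in that test. The list as a whole stayed near 0, with feature medians of -0.05, 0.05, -0.03 and 0.07 at 1, 2, 4 and 6 h. The median later mean of the 11 features was 0.03.

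The contrast of 1 h with the 3 later times gave the most calls. In limma 11 of 53 members passed, 6 positive and 5 negative, which is 20.8% against a background of 11.8% of 8777 features (5.45% positive and 6.36% negative). The 1 h array is a lone array, assumed in this test to vary like the others, and it was also the widest. When the arrays were scaled to an equal spread, 1 of 53 members passed, Lhx1, against 24 of all features, and with quantile normalisation 3 of 53 against 243. Without the 4 h array 4 of 66 members passed (6.06%, against 1.28% of 9186 features), and without the 6 h array 2 of 54 (3.70%, against 2.39% of 9014). The estimates below therefore describe a contrast whose calls depend on how the width of the 1 h array is treated.

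**Figure D4:**
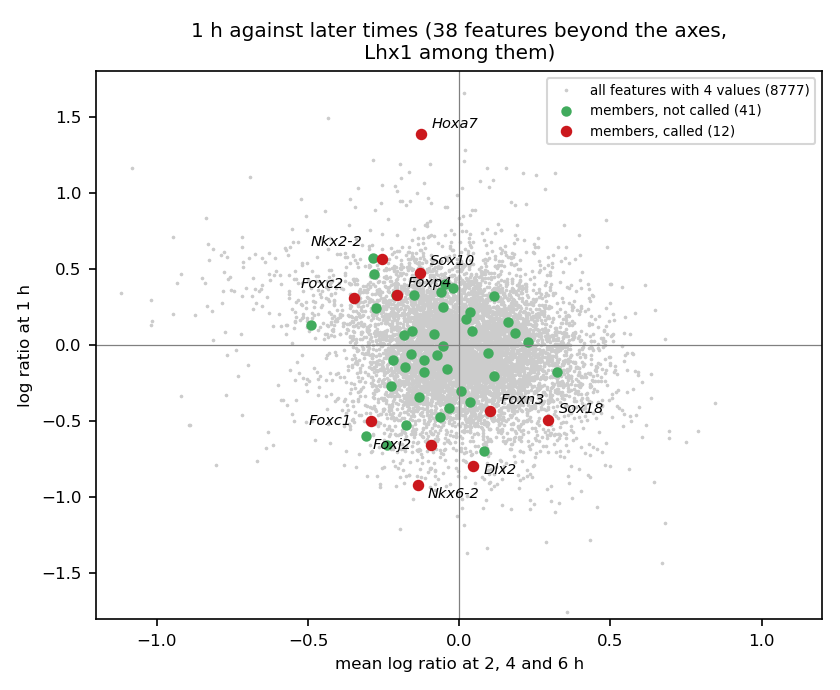
Centred log ratio at 1 h (y axis) against the mean of 2, 4 and 6 h (x axis) for the 53 members with 4 values and, in the background, all 8777 features with 4 values, of which 38, Lhx1 among them, lie beyond the axes. The 12 members called in either test are in red and the other 41 in green, and Hoxa7 stands at the top.

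Hoxa7 was the member with the highest value at 1 h. Its ratio was 1.39 at 1 h and then 0.06, -0.40 and -0.04, so a single array carried it. The 1 h value exceeded the later mean by 1.52 ± 0.19 (SE, limma adjusted p = 0.0225). The adjusted p was 0.0729 with equal spread and 0.0568 with quantile normalisation, and 0.0599 with exact 0 read as a value. It was 0.0193 to 0.0392 when any later array was left out. Of the 10 features numbered around Hoxa7, 5 had a value at 1 h, with a median of 0.16 and a highest value of 0.50. Lhx1 differed by 2.11 ± 0.25 (adjusted p = 0.0204), a difference that was -0.021 after quantile normalisation.

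Genes of the oligodendrocyte lineage split. Sox10, which marks all cells of that lineage, had 0.47 at 1 h and -0.08, -0.22 and -0.09 afterwards, a difference of 0.60 ± 0.12 (limma adjusted p = 0.0373). Nkx2-2, a factor of oligodendrocyte precursors, had 0.57, -0.17, -0.43 and -0.16, a difference of 0.82 ± 0.15 (adjusted p = 0.0329). Nkx6-2, a factor of oligodendrocytes and myelin, ran the other way with -0.92, -0.27, -0.22 and 0.08, a difference of -0.78 ± 0.17 (adjusted p = 0.0433). Sox10 and Nkx2-2 were high at 1 h alone, and Nkx6-2 was low at 1 h. Markers of mature oligodendrocytes had feature medians of -0.02, 0.07, 0.17 and 0.06 at 1, 2, 4 and 6 h over 14 features of 8 genes, with ranges of -0.33 to 0.19 at 1 h and -0.43 to 0.29 at 4 h. None of 11 such features was called in this contrast. On the later mean 2 of the 11 were called positive, 1 feature each of Mog (0.26) and Mal (0.26), where 10.9% of all features were called. The other feature of each gene was not called. The part of oligodendrocyte content in these ratios was not tested.

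Genes of the interneuron lineage were measured mainly at 1 and 2 h. Dlx2, which with Dlx1 specifies GABAergic interneurons, had -0.79 at 1 h and 0.19, -0.11 and 0.06 at 2, 4 and 6 h. It was lowest at 1 h, with a difference of -0.84 ± 0.15 (limma adjusted p = 0.0317). Dlx1, its partner, was likewise lowest at 1 h, with -0.47, -0.15, -0.05 and 0.01. Lhx6, which Nkx2-1 switches on in interneurons, had -0.56 and -0.51 at 1 and 2 h. Lhx8, a factor of cholinergic neurons, had 0.49 and -0.80, Dlx6 had 0.37 and -0.49, and Nkx2-1 had 0.13 and -0.16. The signs at 1 h were thus mixed, 3 positive of 6. Interneuron markers had medians of -0.10, 0.07, 0.11 and 0.08, within -0.55 to 0.32 at 1 h and -0.15 to 0.26 at 2 h, and 1 of 10 features was called in this contrast, the somatostatin gene Sst at -0.69. The part of interneuron content was not tested.

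The remaining calls were in vessel and widely expressed factors. Sox18 differed by -0.78 ± 0.11 (limma adjusted p = 0.0248) and Foxc2 by 0.65 ± 0.13 (adjusted p = 0.0367), with the values given above, and of 6 vessel marker features the tight junction gene Cldn5 was called at -1.19. Foxj2, a forkhead activator, had -0.66, -0.16, -0.14 and 0.02, a difference of -0.56 ± 0.13 (adjusted p = 0.0450). Foxn3, a forkhead repressor, had -0.43, 0.03, 0.11 and 0.16, a difference of -0.53 ± 0.12 (adjusted p = 0.0437). Both were lowest at 1 h and highest at 6 h. Foxp4, a forkhead repressor of the Foxp group, was called through 1 feature (number 13298), with 0.33, -0.17, -0.18 and -0.27 and a difference of 0.53 ± 0.11 (adjusted p = 0.0423). Its other feature had 0.08, 0.02, -0.07 and -0.19, and the mean of both gave 0.35 with an adjusted p of 0.100. Foxp4 is therefore a call of 1 feature only.

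**Figure D5:**
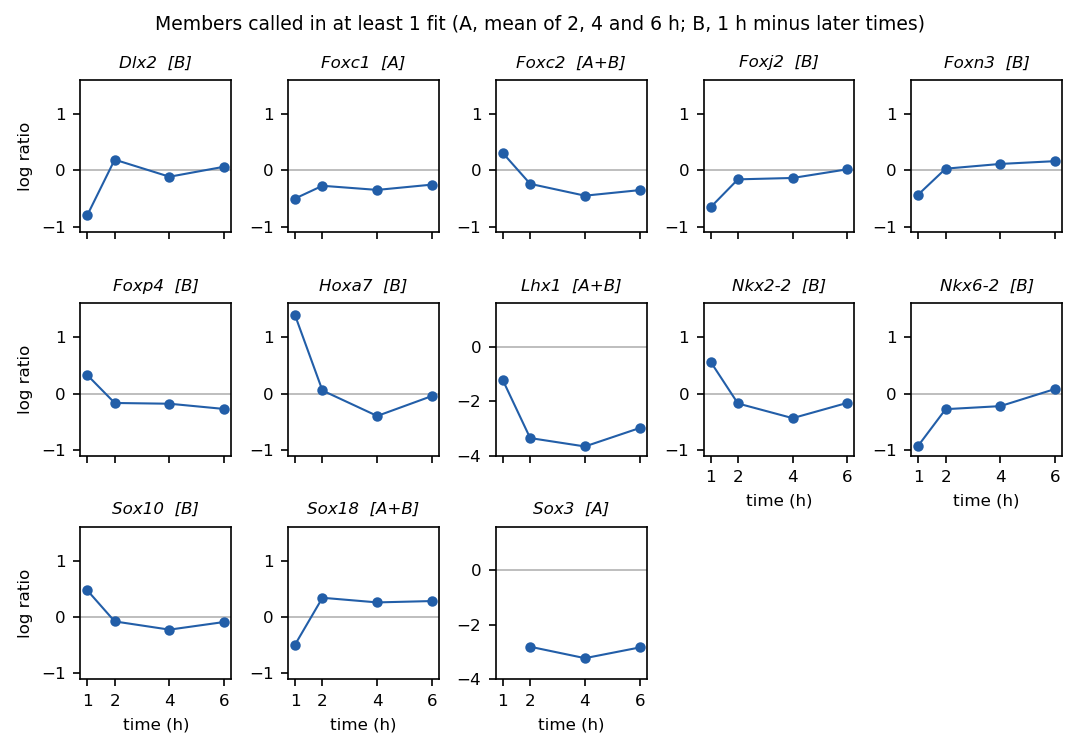
Centred log ratio at 1, 2, 4 and 6 h (x axis, hours) of the members called in the later mean (A), in 1 h minus later times (B) or in both (A+B), with a wider y axis for Lhx1 and Sox3. For most genes called in B the 1 h point stands away from 3 later points of similar height.

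Hox genes, which pattern the body behind the forebrain, were positive more often than not at 1 h. Of 15 Hox features with a 1 h value, 12 were positive and the median was 0.32. Their medians were 0.06, -0.14 and 0.09 on the 3 later arrays. The 6 Hox features with 4 values were all positive at 1 h (median 0.29), and 2, 2 and 3 of them were positive at 2, 4 and 6 h. Hoxa2, the most anterior Hox gene of the hindbrain, had 0.57, -0.12, -0.64 and -0.09. It differed from its later mean by 0.86 ± 0.24 (limma adjusted p = 0.0667). Hoxa4 had 0.17, 0.12, 0.0012 and -0.05, and Hoxb7 had 0.09, -0.17, -0.33 and 0.03. Apart from Hoxa7, none of these Hox features was called.

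Hox values from fewer arrays varied widely. Hoxb5 had 0.36 at 4 h and 0.99 at 6 h, the highest ratio of any member at 6 h. Hoxa10 had 0.52, -0.16 and 0.92 at 2, 4 and 6 h, and its 2 high values stood on either side of a negative one. Hoxb6 had 0.79, -0.23 and 0.42 at 1, 2 and 6 h, and Hoxa11 had 0.23 and -0.50 at 1 and 2 h. Hoxd12 (0.57) and Hoxb13 (0.56) had values at 1 h alone. None of these could be tested over 4 arrays. Hoxa10 alone of them was tested on the later mean, with no call (0.43 ± 0.19, SE, limma adjusted p = 0.182).

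LIM, Pax and Nkx genes beyond those above showed their largest ratios where few arrays had values. Lhx2, which gives the cortex and hippocampus their identity, was -0.10, -0.07, -0.09 and -0.19, the narrowest range of the 4 LIM genes with a value on every array. Lhx5, needed for hippocampal development, was -0.30, -0.0044, -0.07 and 0.10, and Lhx9 was -0.38, -0.09, 0.07 and 0.13. No LIM gene had a positive value at 2 h (0 of 7). Pax8, a thyroid and kidney factor, had 1.24 at 1 h and then -0.12 and -0.08 at 2 and 6 h. Pax2, a factor of the midbrain boundary and kidney, had 1.08, -0.22 and -0.25 at the same times. Both genes, which are close relatives, were high on the 1 h array alone. Pax5, the third member of that Pax group, had -0.96 at 1 h and 0.22 at 2 h. Nkx6-3 had 0.61 and -0.95 at 1 and 2 h, the widest gap of any member over 2 arrays.

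TALE partners and POU factors gave no calls among the features tested, which were all 7 TALE features but only 3 of 5 features of neuronal POU genes. Pbx3, a partner of Hox proteins, had values in the order of time, -0.18, 0.06, 0.32 and 0.59. Its slope was 0.29 ± 0.06 per doubling of hours (limma adjusted p = 0.271), so the order did not pass the test. Pbx2 ran in the opposite order, with 0.38, 0.06, 0.06 and -0.18, and Pbx4 had 0.08, 0.38, 0.07 and 0.11. Meis3 had -0.27, -0.40, -0.23 and -0.05, and Meis1 stayed between -0.13 and 0.0089. Pou3f1, a factor of hippocampal neurons and Schwann cells, had -0.52, -0.37, -0.12 and -0.04. Pou3f3, a factor of upper-layer and hippocampal neurons, had -0.59, 0.0088, -0.52 and -0.41 and the lowest 4-time mean after Lhx1 (-0.38 ± 0.11, adjusted p = 0.259). Pou3f4 was positive throughout, with 0.32, 0.13, 0.02 and 0.19, and Pou3f2 had -0.06 and 0.47 at 1 and 2 h. The 2 neuronal POU genes with the lowest ratios were thus negative at 3 or 4 times, and Pou3f4 was not.

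Over the 4 times no member's slope on log2 hours passed (0 of 53, background 0.0% of 8777). At an unadjusted p below 0.05 were 9 positive and 9 negative slopes among the 53 members. Among all 8777 features there were 777 positive and 580 negative ones, 1357 in all. The steepest were Lhx1 at -0.70, Hoxa7 at -0.58 and Sox11 at -0.40, and Nkx6-2 at 0.35, Pbx3 at 0.29 and Sox18 at 0.27. Foxd1, a forkhead gene of kidney stroma and diencephalon, ran in order with 0.33, 0.05, -0.24 and -0.44 and had the smallest unadjusted p of a slope (-0.30 ± 0.06, adjusted p = 0.271). Foxj1, the master gene of motile cilia in ependymal cells, ran in the opposite order with -0.41, -0.21, -0.04 and 0.14 (slope 0.21 ± 0.06, adjusted p = 0.281). Neither ordered series passed the test.

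Of the FOXO group only Foxo1 had a value on every array and was tested, with no call. Foxo1 had 0.15, 0.30, 0.03 and 0.16, Foxo3 had -0.03 and -0.10 at 1 and 2 h, and Foxo4 had 0.18, -0.07 and -0.42 at 1, 2 and 6 h. Of 16 listed genes that FOXO factors regulate, 15 had values, in 22 features. The antioxidant gene Sod2 was the sole call of 18 features on the later mean, at 0.26 (limma adjusted p = 0.0483). In 1 h minus later times the sole call was 1 of the features of the stress gene Gadd45b (0.67, adjusted p = 0.0359), with 0.80, 0.25, 0.08 and 0.05, while its other feature had -0.14, 0.02, -0.07 and 0.04.

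Cofactors of these families were called in both directions. Of 20 listed genes 15 had values, in 19 features. On the later mean 1 of 14 tested features was called positive, the deacetylase gene Hdac1 (0.31, limma adjusted p = 0.0384), and 1 negative, Ldb1 (-0.29, adjusted p = 0.0402), whose protein joins LIM homeodomain proteins into complexes. In 1 h minus later times the Groucho corepressor gene Tle3 was called at 0.66, and Ctbp2 and Hdac1 were called at -0.66 and -0.52, of 13 tested, where 11.8% of all features were called, against 10.9% on the later mean. The other Ctbp2 feature had a positive difference of 0.28. Of 72 other listed homeobox genes 44 had values. On the later mean 1 of 26 features was called positive, the caudal gene Cdx2 (0.27), and 2 negative, Onecut1 (-0.45) and Tlx2 (-0.41), and in 1 h minus later times 1 of 23, Lmx1b (0.73). The granule cell identity gene Prox1 had -0.57, 0.04, 0.60 and 0.21 and passed neither test.

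Features of the same gene allow a check of a single ratio. Among members with several features the SD between features of 1 gene was 0.347 at 1 h over 7 genes, 0.102 at 2 h over 8, 0.104 at 4 h over 5 and 0.081 at 6 h over 5. Over all genes with several features it was 0.374, 0.339, 0.571 and 0.463. The median gap between the highest and lowest feature of a gene differed less. It was 0.455, 0.122, 0.140 and 0.100 for members, against 0.333, 0.213, 0.206 and 0.173 for all genes. By that measure members were wider apart than all genes at 1 h. Meis2, a TALE partner, shows the 1 h spread: 1 feature had -0.69, 0.34, 0.08 and -0.17, and the other had -0.05, 0.11, 0.18 and -0.0030. Sox6, a SoxD factor of interneurons and glia, had 0.06 and -0.34 at 1 h, and its later values were -0.17, -0.15 and -0.24 in the first feature and -0.26, -0.0073 and -0.13 in the second. Sox7 had 0.24 and 0.88 at 1 h and -0.33 and -0.31 at 2 h. A 1 h difference of about the size of most calls named here thus also occurred between features of a single gene.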

How the data were processed

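RNA of 4 two-colour arrays, 1 each at 1, 2, 4 and 6 h, was compared with 1 ratio per feature. The authors deposited log ratios in 1 table, read here as log2; their scanning, background correction and normalisation are not given in these sources. No intensities were used, so background, saturation and dye effects could not be examined, and the number of arrays limits precision. Exact 0 was taken as no value, each array was centred on its median of non-zero values, and 1 direction was assumed for all arrays, whose labels share their wording. Features were named through the platform annotation, of which 13738 had 1 symbol, 52 several and 2491 none, and checked against RefSeq genes of GRCm38.p6.

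In limma 3.58.1 (R 4.3.3), lmFit and eBayes were fitted to all features with values on the arrays of each test: the mean of 4 times, the mean of 2, 4 and 6 h, the slope on log2 hours with an intercept, and 1 h minus later times. Tests were two-sided, with Benjamini-Hochberg adjustment over all features at 0.05. P-values measure the spread between single arrays of different times. The tests were run on simulated data in which each feature had the same spread on all 4 arrays. That spread came from the 2, 4 and 6 h arrays, so the simulation could not check the tests for the wider 1 h array.

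Members and lists were chosen with earlier results of these data known. Named genes were members called in any test, the 5 highest and 5 lowest means, the 3 highest and 3 lowest values per time and slopes, members with several features, role lists and up to 4 genes of each related list; other names, such as the 4 upstream sequences, were chosen after their values were seen. Alternatives were per-gene means, exact 0 as a value, quantile normalisation, no centring, equal spread, array weights, values on at least 3 arrays, 4-value features only, leaving out each array, and leaving out numbered runs of low values (at least 3 features at or below -1.5, gaps up to 5 numbers).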

Additional observations from a re-analysis of the deposited data

Results flagged for a closer look

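For 11 members the difference between the 1 h array and the mean of the 2, 4 and 6 h arrays itself passed limma's test, with the 1 h array alone on its side. The difference was 2.11 for Lhx1, which lay in a numbered run of low features, but -0.021 after quantile normalisation. In the reported setting it was 1.52 for Hoxa7, 0.82 for Nkx2-2, 0.65 for Foxc2, 0.60 for Sox10 and 0.53 for Foxp4. It was -0.53 for Foxn3, -0.56 for Foxj2, -0.78 for Sox18, -0.78 for Nkx6-2 and -0.84 for Dlx2. With the arrays scaled to an equal spread, Lhx1 alone of these passed.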

How the results depend on the processing

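Leaving out each array moved the number of features called on the mean of 4 times between 0 and 1023 (members 0 to 5, the highest without 1 h), on the mean of 2, 4 and 6 h between 91 and 984 (members 2 to 6), and in 1 h minus later times between 118 and 1659 (members 2 to 16); the slope gave 0 throughout. On the mean of 4 times, quantile normalisation called 11 features (1 member, Lhx1), array weights 2406 (11 members) and values on at least 3 arrays 19 (1 member, Sox3), against 0 in the reported setting. On the mean of 2, 4 and 6 h, reading exact 0 as a value left 1 feature and 0 members, against 1023 and 5, and array weights gave 2487 and 13. Leaving out the numbered runs of low values, an alternative chosen after seeing the data, left 3 members. In 1 h minus later times, against 1036 features and 11 members, exact 0 as a value gave 1967 and 17, quantile normalisation 243 and 3, and equal spread 24 and 1; without 1 h this contrast has no value, and array weights were not planned for it.

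Features past 1 in either direction numbered 258, 117, 215 and 163 at 1, 2, 4 and 6 h. Keeping only features with 4 values gave 59, 61, 61 and 56 (members 2, 1, 1 and 1, against 4, 2, 2 and 2). Equal spread gave 55 at 1 h (1 member) and 4 members at 6 h, quantile normalisation 232 at 2 h (4 members), and leaving out the runs 65, 137 and 96 at 2, 4 and 6 h (0 members each). Features past 0.5 numbered 1868, 778, 923 and 712, and 4 values only gave 876, 328, 580 and 406 (members 11, 1 and 3 at 1, 2 and 6 h, against 22, 8 and 6). At 1 h quantile normalisation gave 1140 (14 members) and equal spread 998 (13 members); at 2 h quantile normalisation gave 13 members. The causes of these moves were not tested, except that fewer features and arrays enter some of them by construction.

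The sign turned for Lhx1 with quantile normalisation (1 h minus later times -0.021, slope 0.10), and its slope ranged between -1.22 and 0.17 over the left-out arrays, positive without 1 h. It turned for the 4-time mean of Hoxa7 with array weights (-0.075), and this mean ranged between -0.13 without 1 h and 0.47 without 4 h. The slope of Sox18 ranged between -0.042 without 1 h and 0.37 without 6 h. Of the other values of named members under the alternatives, 265 kept their sign and side of the threshold, 57 lost the call and 8 gained one.

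Depth could not be read from ratios. No paired analysis was possible because each time has 1 array and the test groups share no replicates beyond it. With 1 array per time the p-values hold no biological repeat, the ratio's base and direction are open, and the members measured on all arrays are the minority.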

Other observations

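Among members measured on all arrays, 18 of 53 were positive at 1 h with a negative later mean (34.0%, against 25.3% of 8777 features), and 9 ran the other way (17.0%, against 29.1%). Both were negative in 19 (35.8%, against 25.3%) and both positive in 7 (13.2%, against 20.4%). These shares are a description of single arrays.

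Sine oculis homeobox genes, which act in eye, muscle and kidney development, had no feature with 4 values. Six5, a factor tied to muscle, was negative wherever measured, with -0.18, -0.47 and -0.44 at 1, 2 and 6 h, while Six3, a forebrain factor, had 0.28 at 2 h alone and Six4 had 0.17 at 2 h and -0.11 at 6 h. Foxm1, a factor of dividing cells, had 0.24 and 0.17 at 1 and 2 h. Foxk1, a factor of muscle progenitors, was -0.06, -0.29, -0.12 and -0.07, and Pou5f1, the pluripotency factor Oct4, had -0.36 and 0.29 at 1 and 2 h. These genes were named after their values were seen, and of these Foxk1 alone was measured on enough arrays to be tested, with no call.

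On the later mean, where 10.9% of all features were called, other marker lists gave the following. Microglial features had medians of 0.14, 0.02, -0.0049 and 0.16 at 1, 2, 4 and 6 h, and 1 of 12 was called, a positive one. Of 3 choroid plexus features tested 2 were called negative, the transthyretin gene Ttr (-0.73) and 1 feature of the klotho gene Kl (-2.95), whose other tested feature was -0.13. Of 6 blood features 1 was called negative, the carbonic anhydrase gene Car1 (-3.22). The blood list had positive feature medians of 0.16, 0.38, 0.03 and 0.17 at 1, 2, 4 and 6 h. The median later mean of the 6 blood features was 0.19. Of 2 ependyma features tested 1 was called positive, and the other, the member Foxj1, was not called.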
